A study of Mus musculus with 9 samples.

Results

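The Fos and Jun gene families, with Atf3, encode the subunits of AP-1, and 8 of their genes were examined in a mouse mammary cell line exposed to red light. The genes Fos, Fosb, Fosl1, Fosl2, Jun, Junb, Jund and Atf3 were found by name among the 54532 genes of the count table. Each name matched 1 row, and all 8 were abundant enough to be among the 14471 genes tested. RNA was sequenced from HC11, a mouse mammary epithelial line, with strain given as C57BL/6 and cells grown in medium with fetal bovine serum. The 3 groups of 3 libraries were an untreated group (Ctrl) and the exposed groups EpPT1 and EpPT2, which received 660 nm light in 12-well dishes. The fluence of EpPT1 is 10 J/cm2 in its sample labels and that of EpPT2 is 20 J/cm2, but the protocol states 0.5 and 1 J/cm2 at 10 mW, and no dose is attached to the groups here. The light source is a laser in the title and protocol but an LED in the design text. No label states how long after exposure the cells were lysed. Nothing ties the libraries to separate cultures, and the p-values therefore cover only the spread between libraries, which may be technical.

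AP-1 is a family of dimers of basic leucine zipper (bZIP) proteins. Fos proteins bind DNA only with a partner, usually a Jun protein, whereas Jun proteins also pair with each other, and ATF3 can pair with Jun proteins. Fos, Fosb, Jun, Junb and Atf3 are immediate early genes, whose short-lived transcripts rise within minutes of growth factors, serum or stress, while Fosl1 and Fosl2 rise later and Jund is held at a steadier level in many cells.

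Total counts per library ranged from 14549787 to 17228929. The share of counts on mitochondrial genes was 6.06% to 7.48% in 4 libraries (Ctrl 3, EpPT1 3, EpPT2 2 and EpPT2 3) and 2.74% to 3.62% in the other 5. The trend of expression with gene GC content also differed: its slope per 10 percentage points of GC, on the log2 scale, was -0.52 to -0.24 in Ctrl, -0.38 in EpPT1 1 and 0.20 to 0.39 in the other exposed libraries. Over all genes tested, log2 expression in EpPT1 1 was most like that in Ctrl 2 (Pearson's r = 0.983). EpPT1 2 was most like EpPT2 1 (0.991) and EpPT1 3 most like EpPT2 2 (0.989). Between EpPT1 libraries r was 0.933 to 0.958, so each was less like its own group than its nearest library of another. The same held for EpPT2 1 and every Ctrl library. Ctrl 1 was most like EpPT1 2 (0.9704, against 0.9668 with Ctrl 2), and Ctrl 3 most like EpPT2 2 (0.966, against 0.941 with Ctrl 2). Only EpPT2 2 and EpPT2 3 were most like a library of their own group (0.990). Luminal epithelial markers, 8 of 8 with counts and led by Krt18, summed to 1789 to 2763 unscaled CPM (a count relative to the library's total) in Ctrl, 2328 to 2793 in EpPT1 and 2392 to 2818 in EpPT2. Of the 5 milk protein genes 2 had counts, and Csn3 alone had 23.3 to 102 CPM over the 9 libraries. The 2 genes summed to 86.0 to 102 CPM in the 4 libraries with a high mitochondrial share and 23.4 to 31.8 CPM in the other 5. Basal epithelial markers, 6 of 6 with counts, summed to 18.6 to 23.7 CPM and 5.42 to 10.3 CPM in the same sets. The milk genes Csn2, Wap and Lalba had 0 counts in all 9 libraries, and for the library with the fewest counts that allows at most 0.206 CPM, for counting error only. Of the fibroblast markers 6 of 7 had counts, with Thy1 at 0 and Dcn in the lead, and they summed to 1321 to 2972 CPM in Ctrl, 772 to 2108 in EpPT1 and 790 to 2066 in EpPT2. Blood and immune cell markers, with Adgre1 at 0 and Cd68 in the lead, summed to 85.7 to 97.3 CPM in the 4 libraries with a high mitochondrial share and 9.89 to 47.9 CPM in the other 5. Cd68 alone reached 96.4 CPM and Dcn alone 2965 CPM, so the highest of these sums came almost wholly from 1 gene each. They do not establish that fibroblasts or immune cells were present. In these bulk libraries, fewer cells of a type and less RNA per cell cannot be told apart.

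Per kilobase of gene, Atf3 and Junb were the most abundant AP-1 transcripts and Fosb the least. Averaged over the 9 libraries, the level in TMM-scaled CPM per kilobase was 133 for Atf3, 92.4 for Junb, 64.1 for Jund, 55.3 for Fos, 54.1 for Jun, 28.4 for Fosl1, 12.8 for Fosl2 and 7.43 for Fosb. These values assume that the whole annotated length is transcribed, which matters most for Fosl2 (9680 bases) and Fosb (6243 bases). In Ctrl the levels of neighbours in the order overlapped, with Atf3 at 183 ± 221 (SD, n = 3), Junb at 49.4 ± 17.0, Jun at 44.0 ± 42.6 and Jund at 27.5 ± 12.3. In EpPT2, Junb (104 ± 17.5), Atf3 (102 ± 31.0), Jund (96.7 ± 6.03) and Fos (79.5 ± 48.9) did not differ beyond their spread. Every EpPT2 value of Jun (63.5 ± 13.8) lay above those of Fosl1 (27.3 ± 3.61), and all of Fosl1 above those of Fosb (13.2 ± 10.0) and Fosl2 (12.8 ± 1.13).

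The 8 genes were among the more variable transcripts of these libraries. The standard deviation of log2 CPM over the 9 libraries was 2.33 for Fosb, 1.81 for Fos and 1.13 for Jund, and 0.66 to 0.95 for the other 5. Among 10242 genes with a mean of at least 5 CPM the median was 0.39, and 85.4% (for Fosl2) to 99.9% (for Fosb) of them varied less than the member. From the lowest to the highest library, Fosb ranged 108-fold, Fos 40.3-fold, Atf3 8.21-fold and Jund 7.02-fold. For Fos both ends of that range lay in the same group, with the lowest value in EpPT1 1 and the highest in EpPT1 3.

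**Figure D1:**
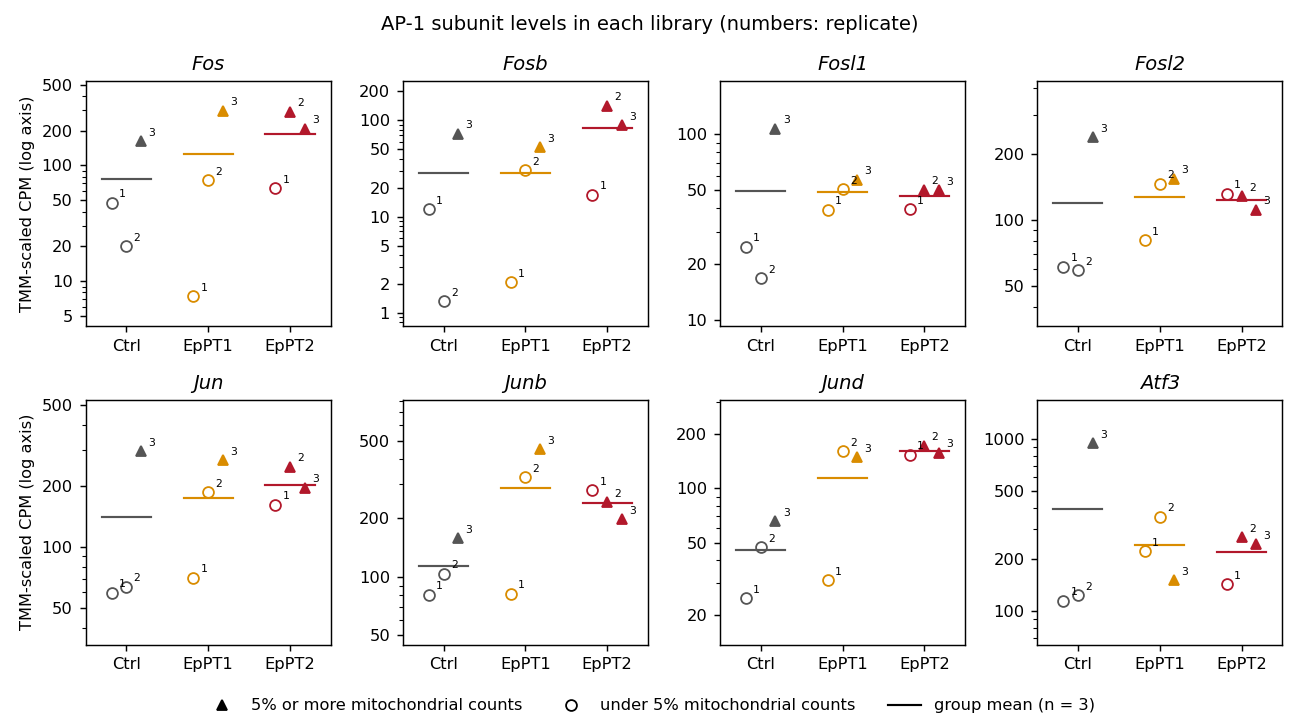
TMM-scaled CPM of each AP-1 gene (log axis) in the 9 libraries, by group, with the group mean as a line; filled triangles mark the 4 libraries with 5% or more mitochondrial counts. Jund is at 153 to 173 CPM in the 3 EpPT2 libraries and at most at 65.6 in Ctrl, while Atf3, Jun, Fosl1 and Fosl2 are highest in Ctrl 3.

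Fos and Fosb are the classical serum-induced Fos genes. Their promoter windows from 250 bases before to 50 after the RefSeq start (GRCm38.p6) are shown because both genes were high in the same libraries. Capitals mark the core of the cyclic AMP response element (CRE), spelled TGACG, and the TATA box, spelled TATAAA.
Fos (chr12:85473640-85473939, plus strand): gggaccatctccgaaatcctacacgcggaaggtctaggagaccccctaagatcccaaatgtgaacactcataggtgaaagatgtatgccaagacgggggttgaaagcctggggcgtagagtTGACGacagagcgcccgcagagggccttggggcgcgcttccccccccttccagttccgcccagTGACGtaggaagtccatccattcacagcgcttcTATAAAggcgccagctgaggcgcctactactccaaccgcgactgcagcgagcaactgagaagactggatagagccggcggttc
Fosb (chr7:19309996-19310295, minus strand): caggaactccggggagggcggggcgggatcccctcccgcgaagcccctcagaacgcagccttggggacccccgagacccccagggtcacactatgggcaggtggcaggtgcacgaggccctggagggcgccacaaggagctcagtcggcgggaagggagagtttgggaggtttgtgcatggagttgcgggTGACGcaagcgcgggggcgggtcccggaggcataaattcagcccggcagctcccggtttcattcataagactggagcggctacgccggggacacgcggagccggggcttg
The CRE core lies 66 and 129 bases before the start of Fos and 60 bases before that of Fosb, on the strand of the gene. It occurs on either strand in 20.9% of 32544 promoter windows of the same length, and TATAAA, found in Fos 33 bases before the start, in 13.6%. The core is part of the full CRE, TGACGTCA, which neither window holds. The AP-1 site itself, TGANTCA, is in 7.79% of windows and in none of the 7 found for the members (all but Fosl1). For Atf3, Jund and Fosl2 the RefSeq start lies 34706, 1210 and 671 bases from the start in the count table. Their windows may therefore not be the promoters of the counted gene models. A match of letters describes the sequence and not the binding of a factor.

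Fos (ENSMUSG00000021250, chromosome 12, 85473890 to 85477273, GRCm38) varied widely within every group. Ctrl 1, 2 and 3 had 47.8, 20.0 and 161 CPM, the EpPT1 libraries 7.39, 74.9 and 298, and the EpPT2 libraries 63.4, 291 and 207. The 3 groups overlapped, and the 4 libraries with a high mitochondrial share held the 4 highest values. Those libraries also had the higher sums of milk (led by Csn3), basal, and blood and immune cell markers (led by Cd68). The part of any of these measures in the result for Fos was not tested, other than with the mitochondrial share as a covariate. The low value of EpPT1 1 rests on 128 counts, for which an exact 95% Poisson interval is 6.16 to 8.78 CPM, for counting error only. Against Ctrl, the log2 difference was 0.73 (SE 1.07) in EpPT1 and 1.29 (SE 1.08) in EpPT2, with edgeR adjusted p values of 0.991 and 0.608. With the mitochondrial share as a covariate the EpPT2 difference was 1.02, and without EpPT1 3 the EpPT1 difference was -0.89.

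Fosb (ENSMUSG00000003545, chromosome 7, 19302696 to 19310051), whose short splice form is known to persist after repeated stimulation, had the widest range of the 8 genes. Ctrl 1 to 3 had 12.0, 1.32 and 72.2 CPM, EpPT1 1 to 3 had 2.08, 30.2 and 52.3, and EpPT2 1 to 3 had 16.9, 142 and 88.7. Ctrl 2, with 22 counts (0.824 to 1.99 CPM by the exact Poisson interval), and EpPT1 1 were the lowest, and EpPT2 2 the highest. As for Fos, the 4 libraries with a high mitochondrial share (52.3 to 142 CPM) lay above the other 5 (1.32 to 30.2 CPM). The log2 difference against Ctrl was -0.01 (SE 1.26) in EpPT1 and 1.54 (SE 1.28) in EpPT2, with edgeR adjusted p values of 0.999 and 0.606. With the mitochondrial share as a covariate the EpPT2 difference was 1.53 (SE 0.87).

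Fosl1 and Fosl2 encode FRA1 and FRA2, Fos proteins without the strong activation domain of FOS, and FRA1 is linked to migration of breast epithelial cells. Fosl1 (ENSMUSG00000024912) lies on chromosome 19, 5447703 to 5455945, and Fosl2 (ENSMUSG00000029135) on chromosome 5, 32135801 to 32157842. For Fosl1, Ctrl 1 to 3 had 24.9, 16.8 and 107 CPM, EpPT1 1 to 3 had 39.3, 50.6 and 56.9, and EpPT2 1 to 3 had 39.5, 50.4 and 49.98. For Fosl2, Ctrl 1 to 3 had 61.3, 59.3 and 239 CPM, EpPT1 1 to 3 had 81.2, 146 and 154, and EpPT2 1 to 3 had 132, 129 and 112. In both genes Ctrl 3 was above every exposed library, and Ctrl 1 and Ctrl 2 below every one. The fitted log2 differences against Ctrl were therefore close to 0, at -0.02 (SE 0.56) and -0.09 (SE 0.56) for Fosl1 and 0.09 (SE 0.50) and 0.05 (SE 0.50) for Fosl2, in EpPT1 and EpPT2. Without Ctrl 3, where 2 Ctrl libraries remain, the EpPT2 differences were 1.16 (SE 0.29) for Fosl1 and 1.04 (SE 0.30) for Fosl2, with an edgeR adjusted p of 0.330 for each. Fosl1 has 59.9% GC, above 96.5% of the genes tested. With each library's GC trend taken out, its differences were -0.42 (SE 0.52) in EpPT1 and -0.82 (SE 0.52) in EpPT2.

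The Jun genes supply the partner that Fos proteins need. The promoter windows of Jun and Junb are shown for comparison with those of the Fos genes, with the CRE core and TATA box as above and the AP-1-like site of Jun, TGACATCA, in capitals. That site is known as the element through which AP-1 and ATF proteins act on Jun.
Jun (chr4:95052173-95052472, minus strand): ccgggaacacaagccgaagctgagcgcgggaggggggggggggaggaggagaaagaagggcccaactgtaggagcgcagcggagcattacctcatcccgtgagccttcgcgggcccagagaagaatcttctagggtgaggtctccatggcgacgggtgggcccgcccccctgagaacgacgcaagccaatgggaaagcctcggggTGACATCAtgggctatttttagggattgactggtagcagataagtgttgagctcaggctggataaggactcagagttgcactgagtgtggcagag
Junb (chr8:84978699-84978998, minus strand): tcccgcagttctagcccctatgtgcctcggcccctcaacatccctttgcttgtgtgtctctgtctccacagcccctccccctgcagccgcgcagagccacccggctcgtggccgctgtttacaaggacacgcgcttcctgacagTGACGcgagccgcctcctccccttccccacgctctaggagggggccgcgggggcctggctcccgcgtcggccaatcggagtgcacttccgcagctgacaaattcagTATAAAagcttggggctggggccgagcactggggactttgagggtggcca
TGACATCA lies 45 bases before the start of Jun and occurs in 3.37% of the 32544 windows, and it does not contain the CRE core. In Junb the CRE core lies 106 bases before the RefSeq start, and the TATA box letters begin at that start, which is 30 bases before the start in the count table. The RefSeq start of Jund lies 1210 bases before the counted gene model, so its window is not shown.

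Jun (ENSMUSG00000052684, chromosome 4, 95049034 to 95052222), the strongest activator of its family, was highest in Ctrl 3. Ctrl 1 to 3 had 59.6, 63.9 and 297 CPM, EpPT1 1 to 3 had 70.6, 187 and 269, and EpPT2 1 to 3 had 162, 249 and 196. The groups overlapped, although Ctrl 1 and Ctrl 2 were below all 6 exposed libraries. The log2 difference against Ctrl was 0.32 (SE 0.63) in EpPT1 and 0.53 (SE 0.63) in EpPT2, with edgeR adjusted p values of 0.991 and 0.729. Without Ctrl 3 the EpPT2 difference was 1.71 (SE 0.48, edgeR adjusted p = 0.330).

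Junb, a weaker activator that can oppose Jun in growth control, was higher in 5 of the 6 exposed libraries than in any Ctrl library. Ctrl 1 to 3 had 80.7, 103 and 157 CPM, EpPT1 1 to 3 had 81.9, 325 and 451, and EpPT2 1 to 3 had 277, 241 and 197. EpPT1 1 lay within the Ctrl range, and EpPT2 did not overlap Ctrl. The log2 difference against Ctrl was 1.33 (SE 0.51) in EpPT1 and 1.07 (SE 0.50) in EpPT2, without passing the test (edgeR adjusted p = 0.991 and 0.415). With each library's GC trend taken out, the differences were 0.46 (SE 0.29) and 0.05 (SE 0.29). Junb (ENSMUSG00000052837, chromosome 8, 84974484 to 84978718, GRCm38, minus strand) has 62.6% GC, above 99.1% of the genes tested. Its last 351 bases overlap Prdx2 on the opposite strand, which had 2543 to 4687 counts, and since it is not known whether counting used strand, reads of the 2 genes cannot be told apart there. Jun, Jund and Atf3 each overlap a transcript on the opposite strand that had at most 12 counts.

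Jund, which encodes a subunit associated with slow growth and protection from oxidative stress, had the smallest p of the 8 genes in EpPT2 against Ctrl. Ctrl 1 to 3 had 24.6, 47.2 and 65.6 CPM, EpPT1 1 to 3 had 31.0, 161 and 149, and EpPT2 1 to 3 had 153, 173 and 158. The 3 EpPT2 libraries lay close together and above every Ctrl library, and EpPT1 1 was again within the Ctrl range. The log2 difference against Ctrl was 1.31 (SE 0.53) in EpPT1 and 1.82 (SE 0.54) in EpPT2, a 3.52-fold difference in the latter, and neither passed the test (edgeR adjusted p = 0.991 and 0.376). Jund (ENSMUSG00000071076, chromosome 8, 70698949 to 70700616, GRCm38, plus strand) has 67.1% GC, above 99.9% of the genes tested. With each library's GC trend taken out, its differences were 0.17 (SE 0.26) and 0.36 (SE 0.26). With the mitochondrial share as a covariate they were 1.40 (SE 0.46) and 1.78 (SE 0.46). The GC slope was negative in every Ctrl library and positive in every exposed library but EpPT1 1. For GC-rich genes such as Jund and Junb, the GC trend and a difference between groups therefore cannot be told apart here.

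Atf3 (ENSMUSG00000026628, chromosome 1, 191170296 to 191218039), a stress-induced bZIP gene whose protein can repress as a homodimer, had lower fitted values in both exposed groups than in Ctrl. Ctrl 1 to 3 had 115, 123 and 945 CPM, EpPT1 1 to 3 had 223, 355 and 151, and EpPT2 1 to 3 had 144, 269.96 and 245. Ctrl 3 stood far above every other library, and Ctrl 1 and Ctrl 2 lay below all 6 exposed libraries. The log2 difference against Ctrl was -0.70 (SE 0.73) in EpPT1 and -0.85 (SE 0.73) in EpPT2, with edgeR adjusted p values of 0.991 and 0.617. Without Ctrl 3 the sign turned, to 1.02 in EpPT1 and 0.88 (SE 0.39) in EpPT2.

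**Figure D2:**
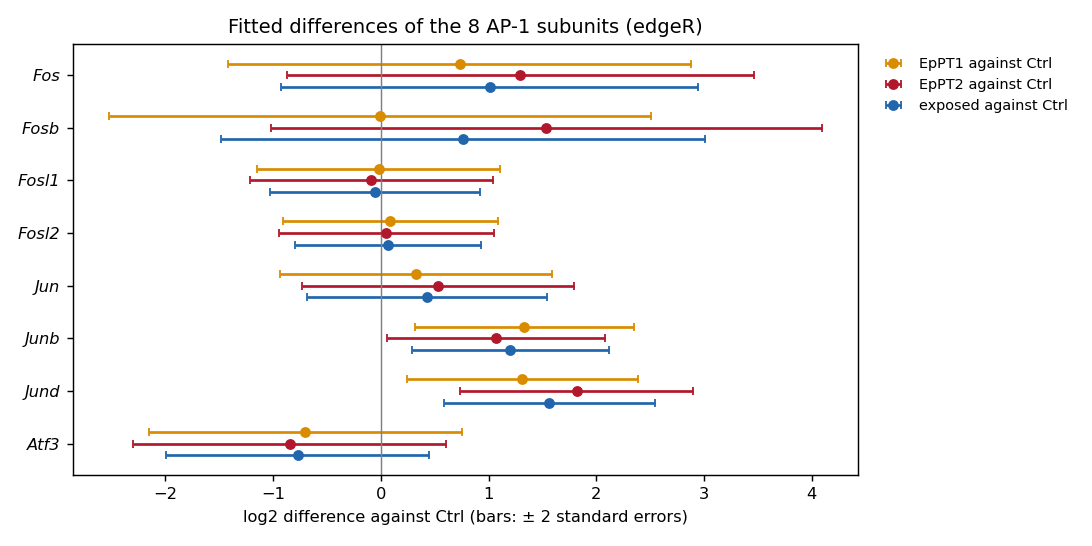
Fitted log2 differences of the 8 AP-1 genes against Ctrl in EpPT1, EpPT2 and both exposed groups averaged (points), with bars of ± 2 standard errors. Only the bars of Junb and Jund stay above 0 in all 3 comparisons, and Fos and Fosb have the widest bars. No member passed edgeR's test, and a bar above 0 is not a test: Junb in EpPT2 had an unadjusted edgeR p of 0.059.

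The comparison of EpPT1 with Ctrl asks whether the members differ between the first exposed group and untreated cells. In edgeR's quasi-likelihood test 0 of 8 members passed, as did 0% of the 14471 genes, and DESeq2 (0.00691% of genes) and limma-voom also called 0 members. At an unadjusted p under 0.05 there were 2 members, Junb and Jund, both higher, against 3.01% of genes higher and 0.919% lower at that level. A difference of at least 1 on the log2 scale was fitted for Junb and Jund, against 3.41% of genes. Members with a difference above 0 numbered 5 of 8, against 48% of all genes, and their median log2 difference was 0.21, against -0.02 over all genes. No member had non-overlapping groups, against 2.73% of genes higher and 2.53% lower. With no filter on low counts, edgeR called Junb (adjusted p = 0.028) and Jund (adjusted p = 0.034), with 0.111% of 28724 genes called.

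EpPT2 with Ctrl asks the same of the second exposed group and shares its Ctrl libraries with the previous comparison. Again 0 of 8 members passed edgeR's test (0% of 14471 genes), and DESeq2 (0.428% of genes) and limma-voom called 0. Jund was the 1 member at an unadjusted p under 0.05, against 6.88% of genes higher and 5.31% lower at that level. Junb and Jund had non-overlapping groups, both higher, against 12.3% of all genes higher without overlap and 10.9% lower. A difference above 0 was fitted for 6 of 8, against 47.9% of all genes. Differences of at least 1 on the log2 scale were fitted for 4 members (Fos, Fosb, Junb and Jund), against 6.77% of genes, and the median over the 8 was 0.80, against -0.03 over all genes. Without the filter edgeR called Fos (adjusted p = 0.042), Fosb (0.024) and Jund (4.0e-05), with 0.933% of genes called, although Fos and Fosb overlapped Ctrl. The fold of Fosb was nearly the same in that fit, at 1.56 on the log2 scale, with an SE of 0.40 in place of 1.28. With the replicate block and the mitochondrial share together edgeR called Jund (2.20, adjusted p = 0.030), among 2.97% of genes.

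EpPT2 against EpPT1 compares the exposures, and 0 of 8 members passed edgeR's test, with 0% of genes called, 0 members at an unadjusted p under 0.05 (0.0691% of genes higher and 0.145% lower) and 0 members called by DESeq2 or limma-voom. Without the filter on low counts it still called 0 members, with 0.00696% of genes called. The fitted log2 differences ran from -0.26 (SE 0.50) for Junb to 1.55 (SE 1.28) for Fosb. For Jund the difference was 0.50 (SE 0.53), and the range of 2 standard errors, -0.55 to 1.56, spans 0. The difference was above 0 for 4 of 8 members, against 48.3% of genes, and at least 1 for Fosb, against 1.14%. All 8 overlapped between EpPT1 and EpPT2, where 1.26% of genes were higher and 1.2% lower without overlap.

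Averaging both exposed groups against Ctrl sets 6 libraries against 3. In edgeR 0 of 8 members passed (0% of genes), with Junb and Jund at an unadjusted p under 0.05 (6.52% of genes higher and 4.67% lower), and DESeq2 (0.608% of genes) and limma-voom called 0. No member had non-overlapping groups (1.89% of genes higher and 1.77% lower). Members above 0 numbered 6 of 8, against 47.3% of genes, and 3 (Fos, Junb and Jund) reached 1, against 4.65%. The log2 difference was 1.57 (SE 0.49) for Jund and 1.201 (SE 0.46) for Junb, with edgeR adjusted p values of 0.423 and 0.428. The call depended on EpPT1 1: without it, Jund gave 1.79 (SE 0.30, edgeR adjusted p = 0.039) and Junb 1.42 (SE 0.27, adjusted p = 0.047), and 244 of all genes were called. With no filter on low counts, edgeR called both (0.7% of genes), and with the mitochondrial share and the replicate block it called Jund (2.48% of genes). With each library's GC trend taken out they gave 0.27 (SE 0.23) and 0.25 (SE 0.25).

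Within the 5 libraries with a low mitochondrial share (Ctrl 1, Ctrl 2, EpPT1 1, EpPT1 2 and EpPT2 1), EpPT2 1 is alone in its group. All 8 members had a fitted difference above 0 in the average of exposed against Ctrl, from 0.61 (SE 0.72) for Fos to 1.78 (SE 0.58) for Jund, with edgeR adjusted p values of 0.944 to 0.945. In that subset Fosl1, Fosl2, Jun and Atf3 were higher in all 3 exposed libraries than in both Ctrl libraries. Within the 4 libraries with a high share, Ctrl 3 is the only Ctrl library. There those 4 genes were lower in all 3 exposed libraries than in Ctrl 3, while Fos, Junb and Jund were higher. The direction for Fosl1, Fosl2, Jun and Atf3 thus turned between the 2 sets, and with 1 Ctrl library in the latter the difference between them was not tested. Separation from 1 library is a weak criterion. The share of all genes that separated in either set, or had a difference above 0 in the first, was not worked out. These patterns are therefore a description only.

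**Figure D3:**
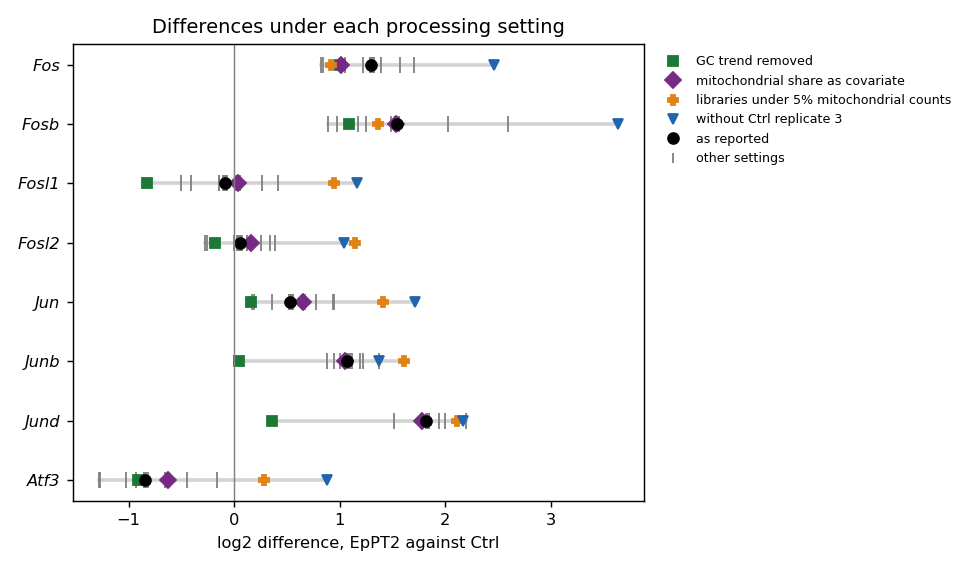
Log2 difference of each AP-1 gene in EpPT2 against Ctrl under each processing setting, with the reported value as a black point and ticks for settings without a symbol. Jund and Junb fall to 0.36 and 0.05 with the GC trend removed, and Atf3 lies at 0.88 without Ctrl 3.

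Jund made up a larger and Atf3 a smaller part of the AP-1 transcripts in every EpPT2 library than in any Ctrl library. The part of Jun varied little over the 9 libraries and was also slightly larger in EpPT2 than in Ctrl. Shares are of the summed level per kilobase of the 8 genes, given as a description. In each library they add up to the whole, so the separations of Jund, Atf3 and Jun are not independent. How often shares separate in other sets of genes was not worked out. In level, 12.3% of all genes were higher and 10.9% lower in EpPT2 than in Ctrl without overlap. Jun made up 10.3% to 13.5% in all 9 libraries, although its level ranged 4.99-fold. Its shares of 12.3% to 13.0% in EpPT2 lay above those of 11.3% to 11.5% in Ctrl. For Jund the shares of Ctrl 1 to 3 were 8.92%, 16.1% and 4.87%, of EpPT1 8.66%, 17.8% and 14.3%, and of EpPT2 23.2%, 17.2% and 19.0%, so every EpPT2 library lay above every Ctrl library. For Atf3 those of Ctrl were 32.4%, 32.7% and 54.4%, of EpPT1 48.2%, 30.4% and 11.2%, and of EpPT2 16.8%, 20.9% and 22.8%, all below Ctrl. The level of Atf3 was nevertheless higher in every EpPT2 library than in Ctrl 1 and Ctrl 2, where the summed level of the 8 genes was 165 and 175 CPM per kilobase, against 396 to 601 in EpPT2. The shares were not corrected for GC content, and the log2 difference of Jund in EpPT2 was 1.82 as reported and 0.36 with the GC trend taken out. The Fos family together held 14.1% to 26.2% in Ctrl, 15.0% to 29.5% in EpPT1 and 16.8% to 31.5% in EpPT2, which overlap. The Jun family held 24.9% to 53.2%, 35.6% to 59.2% and 47.7% to 66.4%.

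**Figure D4:**
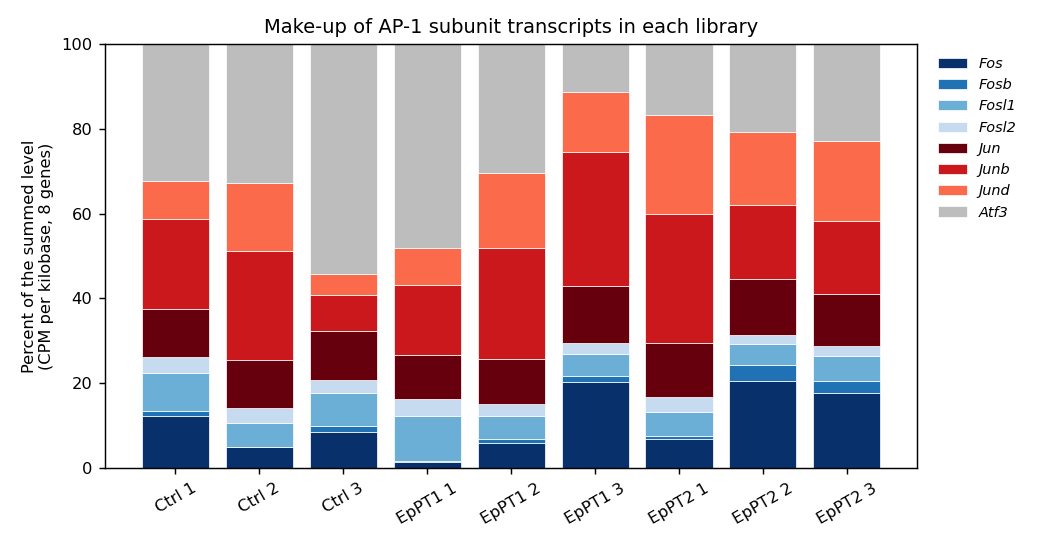
Share of each AP-1 gene in the summed CPM per kilobase of the 8 genes, in percent, for each library (stacked bars). Atf3 takes 32.4% to 54.4% in Ctrl and 16.8% to 22.8% in EpPT2, and Jun keeps 10.3% to 13.5% throughout.

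The likeness of the members' patterns over the 9 libraries is described here by Pearson's r of log2 CPM. These libraries share the differences in mitochondrial share and GC trend. The highest values were 0.94 for Fos with Fosb, 0.94 for Fosl1 with Fosl2, 0.93 for Fosl2 with Jun and 0.92 for Junb with Jund. Atf3 was closest to Fosl1 (0.83) and farthest from Junb (0.14) and Jund (0.19). Outside the family, among 9622 genes, Jund was most like the ribosomal protein gene Rpl28 (0.99), Scand1 (0.99) and the stress cytokine Gdf15 (0.99), and Junb most like Keap1, the sensor of electrophiles (0.97), Mast1 (0.97) and Fbxl14 (0.97). The genes most like Fos were the endoplasmic reticulum disulfide isomerase Pdia6, Capn9 and Ccdc71l (0.97 to 0.98), and those most like Fosb were the amino acid transporter Slc1a4, Pdia6 and Ccdc71l (0.97 to 0.98). Jun was nearest to Gpsm1, Paf1 and Sh2b3 (0.97 each), and Fosl1 to the deubiquitinase gene Otud1, Ctdp1 and the EGF receptor inhibitor Errfi1 (0.94 to 0.98). For Fosl2 the nearest were Errfi1, Otud1 and Eny2 (0.93 to 0.97), and for Atf3 the early response factor Klf6, Zfp622 and Arf4 (0.88 to 0.93).

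Other bZIP genes, whose proteins can pair or compete with AP-1 subunits, had no member past the test in the reported fit. Of 28 listed, 24 were tested and 0 passed edgeR's test in EpPT2 against Ctrl, with 4 higher and 1 lower at an unadjusted p under 0.05 (6.88% and 5.31% of all genes) and a median log2 difference of 0.28, against -0.03 over all genes. Atf4, the effector of the integrated stress response, had 145 ± 70.7 CPM in Ctrl and 325 ± 32.6 in EpPT2 (SD, n = 3 each), and its log2 difference was 1.16 (SE 0.37). Nfe2l1, a regulator of proteasome genes, gave 0.98 (SE 0.35). On the lower side the CRE-binding Jun partner Atf2 gave -0.51 (SE 0.21) and the haem-regulated repressor Bach1 -0.55 (SE 0.28). In these 4 genes, which were picked for the smallest p, EpPT2 did not overlap Ctrl (12.3% of all genes were higher and 10.9% lower without overlap), and the edgeR adjusted p was 0.376 to 0.442. Atf4 and Nfe2l1 have 55.1% and 54.4% GC, and Atf2 and Bach1 40.8% and 47.6%. For the named genes of the pathway lists, differences with the GC trend taken out are not given here. Over the 5 pathway lists, edgeR called 10 genes in EpPT2 against Ctrl with no filter on low counts and 7 with the mitochondrial share and the replicate block.

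Of 42 listed names of upstream kinases and SRF factors, 40 were found and 36 tested. In EpPT2 against Ctrl 0 passed edgeR's test, with 5 higher and 4 lower at an unadjusted p under 0.05 (6.88% and 5.31% of all genes) and a median log2 difference of -0.09. Srf, the serum response factor that drives Fos, had 24.4 ± 11.6 CPM in Ctrl and 60.7 ± 23.2 in EpPT2, a log2 difference of 1.31 (SE 0.48), and Mef2d gave 0.81 (SE 0.28). Rps6ka3, which encodes the ERK-activated kinase RSK2, gave -0.92 (SE 0.30) and Mef2a -0.96 (SE 0.37). All 4, picked in the same way, had non-overlapping groups (12.3% of all genes higher, 10.9% lower) and an edgeR adjusted p of 0.376. Srf and Mef2d have 62.5% and 57.0% GC, and Rps6ka3 and Mef2a 42.6% and 42.7%.

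For genes that limit AP-1 or degrade its subunits, 25 names were listed, 24 found and 23 tested. In EpPT2 against Ctrl 0 were called, with 1 at an unadjusted p under 0.05 in each direction (6.88% of all genes higher, 5.31% lower) and a median of 0.22. The JNK phosphatase gene Dusp8 had 13.0 ± 6.95 CPM in Ctrl and 45.0 ± 13.7 in EpPT2, a log2 difference of 1.79 (SE 0.50), and the phosphatase gene Dusp2, at 1.65 ± 1.32 and 6.23 ± 2.39 CPM, gave 1.92 (SE 1.00). The ubiquitin ligases that act on Jun proteins gave -0.65 (SE 0.22) for Itch and -0.51 (SE 0.27) for Cop1. The edgeR adjusted p was 0.376 to 0.450 for these 4, picked in the same way, and their groups did not overlap (12.3% of all genes higher, 10.9% lower). Dusp8 and Dusp2 have 58.6% and 57.0% GC, and Itch and Cop1 42.4% and 40.1%.

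Among textbook AP-1 targets, 32 of 40 were tested and 0 passed, with 3 higher and 0 lower at an unadjusted p under 0.05 (6.88% and 5.31% of all genes) and a median of 0.18 in EpPT2 against Ctrl. Mmp3, which encodes the metalloproteinase stromelysin-1, gave 2.19 (SE 0.73) but was near the detection limit, at 0.248 ± 0.167 CPM in Ctrl and 1.14 ± 0.387 in EpPT2. The metallothionein gene Mt2 gave -1.13 (SE 0.64) and Nqo1 -0.31 (SE 0.28). Only Mmp3 of these 3, picked in the same way, had non-overlapping groups (12.3% of all genes higher, 10.9% lower). The edgeR adjusted p of the 3 was 0.376 to 0.636. Mmp3 has 45.9% GC, Mt2 53.8% and Nqo1 46.7%.

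For the other immediate early genes, 29 names were listed, 27 found and 24 tested. In EpPT2 against Ctrl 0 were called, with 2 higher and 0 lower at an unadjusted p under 0.05 (6.88% and 5.31% of all genes). Of the 24, 21 had a difference above 0, against 47.9% of all genes, with a median of 0.61. Ier5 and Ier2, picked for the smallest p on the higher side, gave 0.97 (SE 0.34) and 0.78 (SE 0.29). Their groups did not overlap (12.3% of all genes higher, 10.9% lower). On the lower side Klf6 gave -0.20 (SE 0.27) and Egr2, at about 1 CPM, -0.19 (SE 0.89), both with overlap. Ier5 and Ier2 have 52.3% and 60.9% GC, and Klf6 and Egr2 45.0% and 53.2%. In EpPT1 against Ctrl 0 genes of any of these 5 lists passed edgeR's test, and the medians of their log2 differences were 0.22, -0.05, 0.20, 0.17 and 0.50 in the order given here, against -0.02 over all genes. Some genes stand in more than 1 list, and some are listed under both an older and a newer name.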

How the data were processed

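The authors deposited 1 table of whole-number read counts per gene for the 9 libraries, with gene length and coordinates. Per the submitters' processing notes, reads were aligned with Bowtie 0.12.2 and mm8 is named as the build. The table's coordinates are those of GRCm38, since 53585 of the 54495 gene IDs found in GENCODE M21 (98.3%) have the same start and end there. For the counting step, neither the tool nor its filters and use of strand are recorded, and they are not given in sources used here. Groups came from the sample labels.

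Counts were tested with edgeR 4.0.16 in R 4.3.3 (quasi-likelihood test, TMM scaling, default expression filter) in 1 fit of all 9 libraries without a block, with 6 residual degrees of freedom. Benjamini-Hochberg adjustment ran over all 14471 genes tested, with a two-sided threshold of 0.05, and the standard error is the log2 difference divided by the square root of F. Levels between genes are CPM per kilobase of the deposited gene length. GC content is the length-weighted mean over a gene's GENCODE M21 transcripts. The members and the gene lists were chosen with earlier results of these data known. Of each pathway list, the text names the 2 tested genes with the smallest p in each direction in EpPT2 against Ctrl, except 1 gene that is not reported here. For likeness it names the 3 genes with the highest r among tested genes with a mean of at least 5 CPM, leaving out predicted genes, pseudogenes and the other members. Promoter sequences are from RefSeq (GRCm38.p6), which had 7 of the 8 members. Alternatives were DESeq2 1.42.0, limma 3.58.1 (voom), other scaling and filters, a replicate block, the mitochondrial share as a covariate, a GC trend removed per library as an offset, and leaving out libraries. The scripts were tested on simulated data. Whether equal replicate numbers pair the libraries is not stated in the labels. The correlation of same-numbered deviations from the group mean was -0.64 to 0.73, above 0.1 in 6 of 9 pairs. Those 6 pairs were numbered 1 or 3, and their libraries were also alike in mitochondrial share, so this check cannot decide.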

Additional observations from a re-analysis of the deposited data

How the results depend on the processing

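The spread between libraries limits these results: genes varied by 39.3% between libraries of a group (edgeR's common biological coefficient of variation), and in EpPT2 against Ctrl a log2 difference had a median standard error of 0.37. Depth was not limiting for the members, which had at least 22 counts in every library. Junb and Jund against Ctrl had fitted values above 0 in EpPT1, EpPT2 and the average of both under every alternative run, but with the GC trend removed they were within 2 standard errors of 0: 0.46 (SE 0.29), 0.05 (SE 0.29) and 0.25 (SE 0.25) for Junb and 0.17 (SE 0.26), 0.36 (SE 0.26) and 0.27 (SE 0.23) for Jund. Junb and Jund in EpPT1 were also within 2 standard errors of 0 with limma-voom, at 1.07 (SE 0.54) and 1.10 (SE 0.59). Without EpPT1 3 their EpPT1 differences were too, at 0.84 (SE 0.49) and 1.07 (SE 0.58). The same held for Junb in EpPT2 without Ctrl 1, at 0.88 (SE 0.57), and in further fits with 1 library left out. DESeq2 size factors and the filter of at least 5 CPM in 3 libraries reversed no member.

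With all genes that had a count tested and no filter, edgeR called 2 members and 32 genes in EpPT1 against Ctrl, 3 members and 268 genes in EpPT2 against Ctrl, 2 genes in EpPT2 against EpPT1, and 2 members and 201 genes in exposed against Ctrl. DESeq2 called 1, 62 and 88 genes in EpPT1, EpPT2 and exposed against Ctrl, and 0 members. The mitochondrial share with the replicate block called 1 member and 430 genes in EpPT2, and 1 member and 359 genes in exposed against Ctrl. Leaving out 1 library gave 0 to 2 members and 0 to 244 genes called in exposed against Ctrl, both highest without EpPT1 1, and 0 to 2 genes in EpPT2 against Ctrl. Of the genes of the 5 pathway lists, 10 were called with no filter and 7 with the mitochondrial share and the replicate block in EpPT2 against Ctrl. In exposed against Ctrl these were 6 and 11, and 3 without EpPT1 1. Without the filter the standard errors were smaller at nearly the same fold: in EpPT2 against Ctrl 0.40 in place of 1.28 for Fosb and 0.32 in place of 0.54 for Jund. The cause of these changes was not tested.

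It is not known whether equal replicate numbers mark a pairing. With the replicate block alone, 0 members were called in any comparison, and Fosl1 reversed to 0.31 in EpPT1, 0.26 in EpPT2 and 0.29 in exposed against Ctrl, and in EpPT2 against EpPT1 Fosl2 to 0.070 and Junb to 0.0046. With the mitochondrial share and the replicate block, Fosl1 gave 0.46, 0.051 and 0.25 against Ctrl in that order, Atf3 0.072 in EpPT1, and Junb 0.24 in EpPT2 against EpPT1. With the mitochondrial share alone, Fosb gave 0.84, Fosl1 0.44 and Atf3 0.17 in EpPT1, Fosl1 0.033 in EpPT2 and 0.23 in exposed against Ctrl, and Jun -0.076 in EpPT2 against EpPT1. With limma-voom, Fosb gave 0.56 and Fosl1 0.47 in EpPT1, Fosl1 0.41 in EpPT2 and 0.44 in exposed against Ctrl, and Fosl2 0.016 and Junb 0.049 in EpPT2 against EpPT1. In libraries under 5% mitochondrial counts, Fosb gave 1.30, Fosl1 1.12 and Atf3 1.29 in EpPT1, Fosl1 0.94 and Atf3 0.29 in EpPT2, Fosl1 1.03 and Atf3 0.79 in exposed against Ctrl, and Fosl2 0.22 and Junb 0.45 in EpPT2 against EpPT1. EpPT2 1 is then alone in its group and assumed to vary like the others. With the GC trend removed, Fosl2 gave -0.084, -0.18 and -0.13 in EpPT1, EpPT2 and exposed against Ctrl, and without the filter Fosb gave 0.0068 in EpPT1. The cause was not tested.

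Leaving out 1 library in turn turned the sign of these members. In EpPT1 against Ctrl the ranges were -0.89 to 1.90 for Fos, -0.81 to 2.08 for Fosb, -0.43 to 1.23 for Fosl1, -0.23 to 1.08 for Fosl2, -0.12 to 1.505 for Jun and -1.13 to 1.02 for Atf3. In EpPT2 against Ctrl they were -0.50 to 1.16 for Fosl1, -0.27 to 1.04 for Fosl2 and -1.28 to 0.88 for Atf3. In EpPT2 against EpPT1 they were -0.20 to 0.052 for Fosl1, -0.27 to 0.12 for Fosl2, -0.16 to 0.65 for Jun, -0.70 to 0.23 for Junb and -0.40 to 0.23 for Atf3. In exposed against Ctrl they were -0.47 to 1.19 for Fosl1, -0.25 to 1.06 for Fosl2 and -1.21 to 0.95 for Atf3. Against Ctrl, the highest value of Fosl1, Fosl2 and Atf3 came without Ctrl 3, the library in which these genes were highest.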
